A study of Mus musculus with 4 samples.

Results

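Interferon signalling starts when an interferon brings its receptor chains together at the cell surface. Type I interferons bind Ifnar1 and Ifnar2, which carry the kinases Tyk2 and Jak1, and interferon gamma binds Ifngr1 and Ifngr2, which carry Jak1 and Jak2. The kinases phosphorylate STAT proteins, among them Stat2, which binds Irf9 in the factor that switches on interferon-stimulated genes, while Socs1, itself induced by the pathway, inhibits the kinases. The 9 genes described here are 4 receptor chains (Ifnar1, Ifnar2, Ifngr1, Ifngr2), 3 Janus kinases (Jak1, Jak2, Tyk2), Stat2 and Socs1. They were taken by symbol from a table of 18200 genes, and all 9 had an entry.

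RNA was taken from polysomes, messenger RNA loaded with several ribosomes, of mouse cells that the labels call ADSCs, with genotype WT in every library. There were 2 libraries labelled scrambled and 2 labelled IFIT1 knockdown, which the series' design text ascribes to an shRNA against Ifit1, and replicate 1 of each group was in batch 1 and replicate 2 in batch 2. No label says that the replicates came from separate cultures, and the p-values therefore reflect the spread among 4 libraries alone, which may be technical. How the polysomes were separated is not described in the labels. Total RNA was not analysed here, so the amount of a messenger RNA and its loading with ribosomes cannot be told apart, and in bulk RNA fewer cells of a type and less RNA per cell cannot be told apart.

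Values are FPKM, the authors' fragment numbers per kilobase of transcript, scaled to library depth, so levels of different genes can be compared. Whole fragments recovered from them summed to between 24449223 and 29826088 per library. The limma test was run on log2(FPKM + 1) for genes whose FPKM averaged 1 or more, a scale that shrinks changes at low levels. Genes averaging under 1 FPKM in either group could pass only through the group in which they were high. Among those named below, these are Usp18, Gbp2, Krt8, Krt18, Krt7, Pparg and several type I interferon targets. Ifit1, the gene named as the target, went against the labels. Its FPKM was 1.93 and 1.91 in the scrambled-labelled libraries and 13.9 and 14.8 in the knockdown-labelled ones, so "higher" and "lower" below refer to the knockdown-labelled libraries against the scrambled-labelled ones. Of 10 stromal markers 7 were tested, and 5 rose and 2 fell: Thy1 rose 8.29-fold and Ly6a 1.96-fold, while the collagen genes Col1a1 and Col1a2 were 3.20 and 2.94 times as high in the scrambled-labelled libraries. The stromal markers Pdgfra, at 0.121 FPKM or less, and Nt5e, at 0.0347 or less, both named after their values were seen, were below the filter. Of 12 leukocyte markers 5 had an entry, with a summed level of 9.24 to 9.32 FPKM in the scrambled-labelled libraries and 9.22 to 9.40 in the knockdown-labelled ones, nearly all of it from Cd14, which rose, and Coro1a, which fell. Of 6 endothelial markers 3 had an entry, with a summed level of 1.61 to 1.69 and 4.47 to 4.70 FPKM in the same order. Nearly all of it was Egfl7. Pecam1, named after its values were seen, was at 0.00932 and 0.00767 FPKM in the scrambled-labelled libraries, 1 recovered fragment each. It was listed at 0 in both libraries labelled knockdown. Of 6 epithelial markers 4 were tested: Krt8, Krt18 and Krt7 rose 9.14-fold, 6.15-fold and 3.25-fold, whereas the far more abundant Krt19 fell and took the sum from 163 to 167 FPKM down to 99.7 to 101. Of 7 adipocyte markers 3 were tested: Pparg and Fabp4 fell, Cebpa rose 1.90-fold, and the sum was 8.36 to 8.38 against 7.65 to 7.72 FPKM. The part of these markers in the results was not tested.

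Of the 9 genes, 8 passed the filter. Among these, 5 rose in the knockdown-labelled libraries (Ifngr1, Ifngr2, Tyk2, Stat2 and Socs1), Jak1 fell, and Ifnar1 and Ifnar2 did not pass the threshold. Among all 8750 tested genes, 27.4% were higher, 41.2% lower and 68.7% called in either direction, so a call on its own does not set these genes apart. Their median log2 change was 0.53, against -0.02 over all tested genes. The groups did not overlap for the 6 called genes, as for 74.5% of tested genes (30.1% with the knockdown-labelled pair above and 44.4% with it below). Centring each library on its median added 0.17 to the median log2 change of all genes, where it gave 2833 higher and 3040 lower genes in place of 2401 and 3608. The signs of all 6 called genes held under it and under quantile normalization. Their SEs below are smaller than fragment numbers alone would give. Raising each SE to at least that size lifted their limma adjusted p from 2.1e-04 at most to between 0.00067 and 0.008. The SEs and p-values given below for these genes thus overstate the precision.

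**Figure D1:**
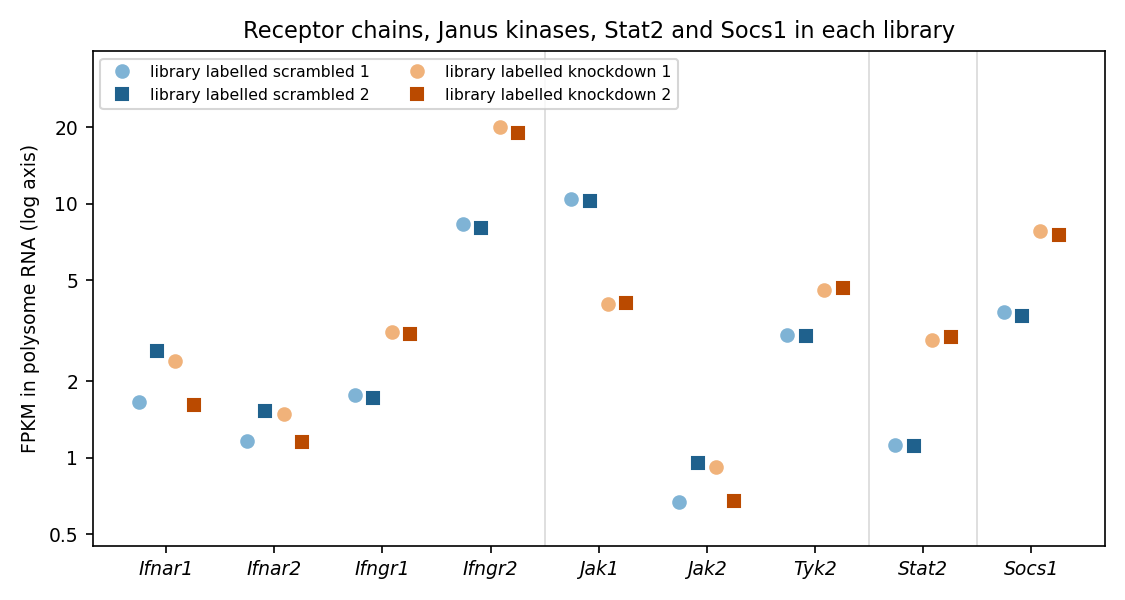
FPKM of each gene (log axis) in the 4 libraries; blue points are the scrambled-labelled libraries, orange the knockdown-labelled ones, circles replicate 1 and squares replicate 2. For Ifngr1, Ifngr2, Jak1, Tyk2, Stat2 and Socs1 the colours separate, while for Ifnar1, Ifnar2 and Jak2 scrambled 2 and knockdown 1 are the high pair and scrambled 1 and knockdown 2 the low pair.

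The interferons themselves were at the edge of detection. Of 6 ligand genes listed, 3 had an entry, and 0 passed the filter. Values of named ligands were seen before they were chosen. Ifnb1, interferon beta, was listed at 0 in 3 libraries and at 0.0332 FPKM in knockdown 2, and Ifna4 likewise was above 0 only in knockdown 2, at 0.113 FPKM. The smallest fragment number that fits is 1 for each, though with 1 library above 0 the true number can be larger. The summed FPKM of the 3 genes was 0.0212 and 0.0525 in the scrambled-labelled libraries and 0.0173 and 0.146 in the knockdown-labelled ones, and these values overlap.

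The chains of the interferon gamma receptor were both higher in the knockdown-labelled libraries. Ifngr1, the ligand-binding chain to which Jak1 attaches, was at 1.76 and 1.72 FPKM in the scrambled-labelled libraries and at 3.11 and 3.07 in the knockdown-labelled ones. The groups did not overlap, and the level was 1.77-fold higher, from 120 and 142 fragments against 259 and 235. This was a log2 change of 0.58 (SE 0.02, limma adjusted p = 1.8e-04), and batches 1 and 2 taken alone gave 0.57 and 0.58. With the SE raised to the counting error of these fragments, the limma adjusted p was 0.008. Ifngr2, the chain to which Jak2 attaches, went from 8.35 and 7.99 FPKM to 20 and 19.0, from 566 and 658 fragments to 1661 and 1450. On log2(FPKM + 1) it had the largest rise of the 8 tested genes, 1.16 (2.39-fold in FPKM, SE 0.04, limma adjusted p = 2.1e-04), and the batches alone gave 1.17 and 1.16. Within each library Ifngr2 exceeded Ifngr1, by 4.73 and 4.65 times in the scrambled-labelled libraries and by 6.43 and 6.19 times in the knockdown-labelled ones. The ratios of the groups do not overlap, but with 2 against 2 libraries the exact two-sided permutation test gives p = 0.333, the smallest it allows.

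The chains of the type I receptor did not separate by label. Ifnar1, the chain that carries Tyk2, was at 1.65 and 2.63 FPKM in the scrambled-labelled libraries and at 2.40 and 1.61 in the knockdown-labelled ones. Scrambled 2 and knockdown 1 were the high libraries, and the means of 2.14 ± 0.688 and 2.00 ± 0.560 (SD, n = 2 each) lay closer together than the replicates of either group. The log2 change was -0.06, with an interval at 95% confidence from -0.81 to 0.70 (limma adjusted p = 0.98), so changes in either direction within that interval could not be told from 0. Ifnar2, the chain that carries Jak1, was at 1.16 and 1.52 FPKM against 1.49 and 1.15. The same libraries were high and low, and the log2 change was -0.01, with an interval from -0.41 to 0.38 (limma adjusted p = 0.99). A fit that paired the replicates crosswise, chosen after the values were seen, called Ifnar1 lower at the same log2 change of -0.06 and did not call Ifnar2. Within the batches the signs disagreed for both chains: the difference was 0.36 in batch 1 and -0.48 in batch 2 for Ifnar1, and 0.20 and -0.23 for Ifnar2. Both estimates turned positive, still without passing, under median-centring (0.11 for Ifnar1 and 0.16 for Ifnar2) and under quantile normalization (0.03 and 0.04). Without scrambled 2 they were 0.17 and 0.10, and without knockdown 2 they were 0.13 and 0.09. In every library Ifnar1 was above Ifnar2, by 1.43, 1.73, 1.62 and 1.40 times in scrambled 1, scrambled 2, knockdown 1 and knockdown 2.

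**Figure D2:**
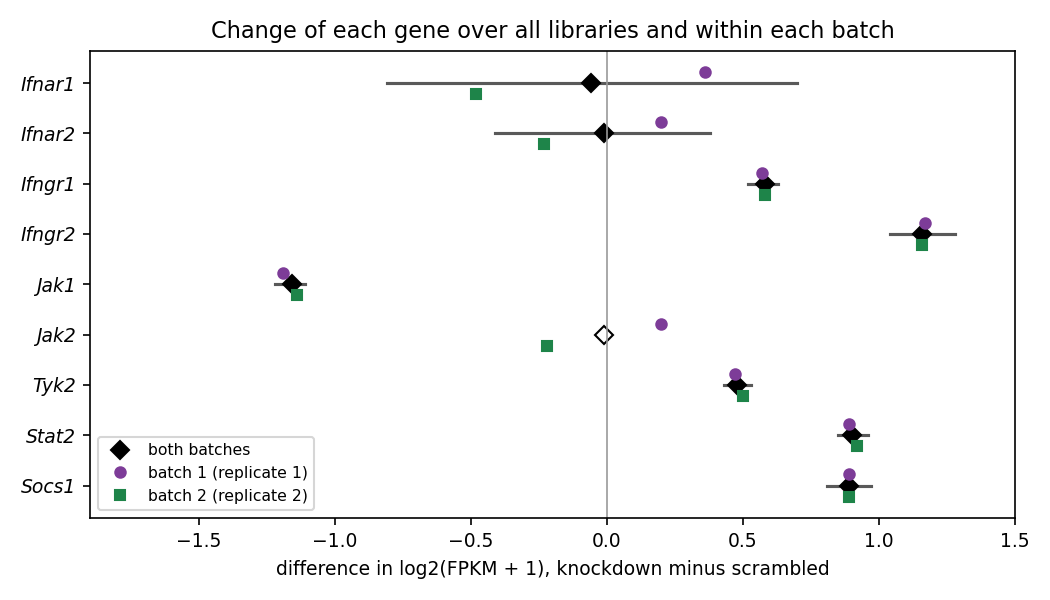
Difference in log2(FPKM + 1), libraries labelled knockdown minus the scrambled-labelled ones, for each gene; diamonds give the value over all 4 libraries with the limma interval at 95% confidence as a line (Jak2, open, was not tested), circles batch 1 and squares batch 2. The batches lie together for the 6 called genes and on opposite sides of 0 for Ifnar1, Ifnar2 and Jak2.

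Of the Janus kinases Jak1 fell, Tyk2 rose and Jak2 was not tested. Jak1, the kinase shared by both interferon receptors and by many cytokine receptors, was at 10.4 and 10.2 FPKM in the scrambled-labelled libraries and at 4.01 and 4.08 in the knockdown-labelled ones. It was the gene of the 9 with the highest level in both libraries labelled scrambled and ranked below Ifngr2, Socs1 and Tyk2 in both labelled knockdown. The level was 2.55 times as high in the scrambled-labelled libraries, on 2022 and 2417 fragments against 956 and 892. This was a log2 change of -1.16 (SE 0.02, limma adjusted p = 1.6e-04), or -1.19 and -1.14 in batches 1 and 2 alone. Tyk2, the kinase of Ifnar1, was at 3.04 and 3.02 FPKM against 4.58 and 4.67, a 1.53-fold rise (log2 0.48, SE 0.02, limma adjusted p = 2.1e-04), or 0.47 and 0.50 in the batches alone. The ratio of Tyk2 to Jak1 was 0.292 and 0.295 in the scrambled-labelled libraries and 1.14 in each labelled knockdown, so the order of these kinases was turned around. That ratio, too, can only reach p = 0.333 in the exact permutation test over 4 libraries.

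Jak2, the kinase of Ifngr2, was below the filter, with a mean of 0.805 FPKM, and was not tested. It was at 0.670 and 0.956 FPKM in the scrambled-labelled libraries and at 0.918 and 0.677 in the knockdown-labelled ones, so the high libraries were the same as for Ifnar1 and Ifnar2. Its fragments numbered 236, 409, 396 and 268 in scrambled 1, scrambled 2, knockdown 1 and knockdown 2. The difference in log2(FPKM + 1) was 0.20 in batch 1 and -0.22 in batch 2, and -0.01 over both. Without the filter it did not pass (limma adjusted p = 1). Jak2 had the lowest level of the 9 genes in every library.

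Stat2, which pairs with Irf9 to bind interferon response elements, was at 1.12 and 1.11 FPKM in the scrambled-labelled libraries and at 2.91 and 2.99 in the knockdown-labelled ones. The groups did not overlap, and the level was 2.65-fold higher, from 161 and 194 fragments against 514 and 485 (log2 0.90, SE 0.02, limma adjusted p = 1.6e-04), or 0.89 and 0.92 in the batches alone. In FPKM this was a larger ratio than the 2.39-fold of Ifngr2, and on log2(FPKM + 1) a smaller change, since the added 1 weighs more at low levels. Socs1, the inhibitor of the Janus kinases, went from 3.73 and 3.61 to 7.77 and 7.55 FPKM, from 161 and 189 fragments to 411 and 366. Its level was 2.09-fold higher without overlap of the groups (log2 0.89, SE 0.03, limma adjusted p = 1.8e-04), and the change was 0.89 in each batch.

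Stat2 and Socs1 are known interferon targets, and their promoters are shown because both rose and because they are the only ones of the 9 that hold the core of the interferon-stimulated response element in the window from 250 bases before to 50 bases after the RefSeq start (build GRCm38.p6). The letters searched, on both strands, were GAAA followed by any 2 bases and GAAA again, and 1131 of 32851 RefSeq promoter windows hold them (3.44%). The gamma-activated site, to which STAT dimers bind, was searched as TTC and GAA set 3 bases apart (8.30% of windows) or 4 bases apart (6.95%), which read the same on either strand. In the windows of the 9 genes no gamma-activated site overlapped a response element. Capitals mark every match, on the gene's own strand from 5′ to 3′. The Stat2 window is chr10:128270248-128270547 (plus strand), with the response element read from the opposite strand at bases -222 to -213 from the start and a gamma-activated site at -210 to -201. The Socs1 window is chr16:10785487-10785786 (minus strand), with a pair of overlapping response elements at -83 to -74 and -77 to -68.
Stat2: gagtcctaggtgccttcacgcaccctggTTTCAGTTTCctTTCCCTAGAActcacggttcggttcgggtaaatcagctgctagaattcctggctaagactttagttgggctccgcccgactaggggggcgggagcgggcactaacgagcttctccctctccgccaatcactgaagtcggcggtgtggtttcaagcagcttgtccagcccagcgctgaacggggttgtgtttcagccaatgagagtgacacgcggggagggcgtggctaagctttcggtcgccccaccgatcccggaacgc
Socs1: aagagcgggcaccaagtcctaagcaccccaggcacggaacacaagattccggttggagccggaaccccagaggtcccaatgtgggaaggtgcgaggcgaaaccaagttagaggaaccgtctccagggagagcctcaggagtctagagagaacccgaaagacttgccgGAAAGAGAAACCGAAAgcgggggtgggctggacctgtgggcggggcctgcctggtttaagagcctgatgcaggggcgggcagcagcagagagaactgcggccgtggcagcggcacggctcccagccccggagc

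Among the other windows, those of Ifngr2 and Jak1 are shown as the genes with the largest rise and the fall. The Ifngr2 window, chr16:91546809-91547108 (plus strand), holds a gamma-activated site at -91 to -82 and is 74.3% G and C. The Jak1 window, chr4:101265174-101265473 (minus strand), holds 0 matches to any of the 3 motifs. The Ifnar1 window has TTCACGGAA across the start site, at -5 to 4, and the Ifnar2 window TTCCTGGAA at -214 to -206. Those of Ifngr1, Jak2 and Tyk2 have 0 matches. The response element and the gamma-activated site with 4 bases between were thus found only in genes that rose. The site with 3 bases between was found only in Ifnar1 and Ifnar2, which did not pass. Each motif was in only 2 of the 9 windows, Ifngr1 and Tyk2 rose without a match, and a link to the changes was not tested. A match is a run of letters, not a measured binding site. For Stat2, Ifnar1, Tyk2 and Jak2 the bases after the RefSeq start were not found in their GENCODE M21 transcripts, so their positions are less certain.
Ifngr2: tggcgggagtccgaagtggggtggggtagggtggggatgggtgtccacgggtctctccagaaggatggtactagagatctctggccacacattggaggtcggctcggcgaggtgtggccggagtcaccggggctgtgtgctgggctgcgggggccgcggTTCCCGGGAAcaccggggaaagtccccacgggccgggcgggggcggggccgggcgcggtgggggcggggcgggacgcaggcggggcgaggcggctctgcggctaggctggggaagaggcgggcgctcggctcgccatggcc
Jak1: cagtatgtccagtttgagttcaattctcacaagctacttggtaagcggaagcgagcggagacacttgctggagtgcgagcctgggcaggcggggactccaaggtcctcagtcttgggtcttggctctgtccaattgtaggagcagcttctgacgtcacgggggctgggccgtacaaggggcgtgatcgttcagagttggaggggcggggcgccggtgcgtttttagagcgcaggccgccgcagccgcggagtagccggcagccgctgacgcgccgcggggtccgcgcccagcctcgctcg

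Ifnar1, Ifnar2 and Jak2 differed between replicates by more than fragment numbers alone would give. For Ifnar1, scrambled 2 exceeded scrambled 1 by 1.59 times and knockdown 1 exceeded knockdown 2 by 1.49 times; for Ifnar2 these ratios were 1.31 and 1.30, and for Jak2 1.43 and 1.36. Set against the spread that fragment numbers alone would give, the difference of replicate 2 from replicate 1 was 7.26 and -6.37 counting SDs for Ifnar1 in the scrambled-labelled libraries and knockdown, 3.33 and -3.29 for Ifnar2, and 4.35 and -3.85 for Jak2. For the 6 called genes the same differences lay between -1.38 (Ifngr2, libraries labelled knockdown) and 0.44 (Stat2, libraries labelled knockdown). Over the 8683 tested genes with recovered fragments above 0 in every library, the difference was over 3 counting SDs in both groups for 20.3% and under 1 in both for 55.6%.

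The opposite sign in the groups was not particular to the receptor genes. With a threshold chosen after the values were seen, 1355 tested genes differed between replicates by at least 0.3 in log2 FPKM (1.23 times) in both groups. Of these, 1354 had opposite signs in the groups and 1 had the same sign, while 2 of the 1354 were called, and 928 had the order of Ifnar1 and Ifnar2, with scrambled 2 and knockdown 1 high. Such genes made up 26.0% of the 5155 tested genes with a log2 change below 0.5 in size and 0.417% of the 3595 with a larger change. Such replicate differences widen the SE, which was 0.24 for Ifnar1 and 0.12 for Ifnar2 against a median of 0.0208 over tested genes. Small changes can then hardly pass, and only 15 of the 1354 genes had a log2 change of at least 0.5 in size. The cause was not tested.

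**Figure D3:**
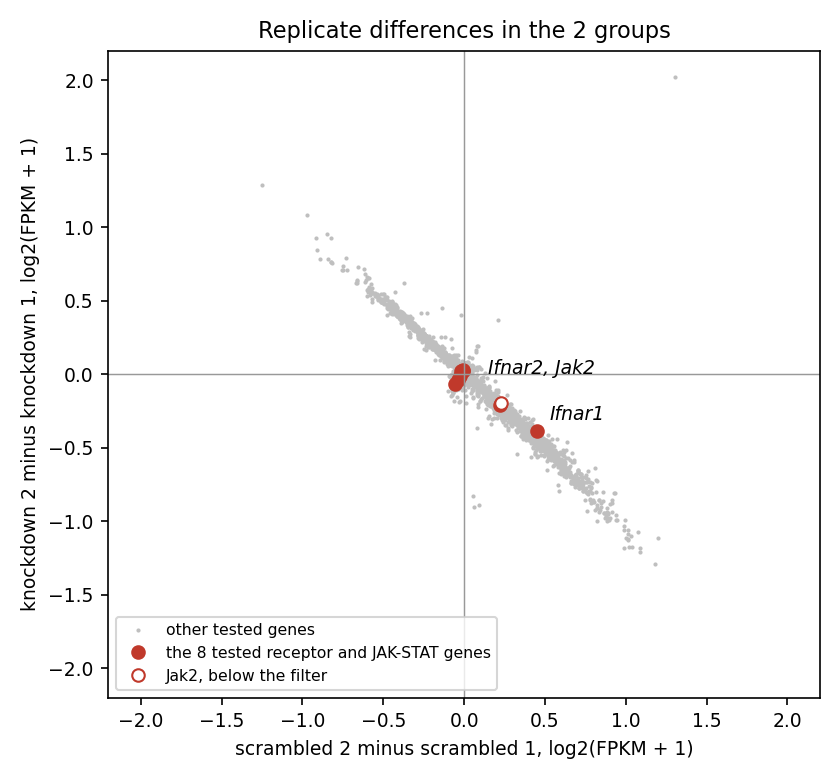
Difference between replicates 2 and 1 in log2(FPKM + 1) in the scrambled-labelled libraries (horizontal) and knockdown (vertical) for the tested genes (grey, 5 of them outside the axes), the 8 tested receptor and JAK-STAT genes (red) and Jak2 (open). Ifnar1, Ifnar2 and Jak2 lie on the falling diagonal in the lower right, and the 6 called genes lie close to the origin.

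Adjoining receptor genes on chromosome 16 did not all share a pattern. In the RefSeq order of protein-coding genes Ifnar2, Il10rb, Ifnar1 and Ifngr2 stand side by side. Il10rb, a chain of the receptors for interleukin-10 and interferon lambda, is named here after its values were seen. It was at 0.965 and 1.5 FPKM in the scrambled-labelled libraries and at 1.49 and 0.939 in the knockdown-labelled ones, in the order of Ifnar1 and Ifnar2 on either side of it (log2 -0.01, limma adjusted p = 0.99), whereas the adjoining Ifngr2 rose. In the GENCODE M21 annotation exons of Ifnar2 overlap Gm21970 on the same strand, those of Jak1 overlap Raver2 on the opposite strand and those of Tyk2 overlap 1700084C06Rik on the opposite strand. Raver2 was at 0.0318 FPKM or less in every library, and Gm21970 and 1700084C06Rik were not analysed here. The sources used here do not give the strand setting of the counting, so reads of such pairs may not have been told apart.

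Genes with the pattern most like Ifngr2 and Jak1 were sought among 8405 other tested genes, by the distance of log2(FPKM + 1) centred on the mean of the 4 libraries. With only 4 libraries many genes lie close. For Ifngr2 the nearest were Cenpw, a centromere protein, at 14.9, 14.2, 34.7 and 33.0 FPKM in scrambled 1, scrambled 2, knockdown 1 and knockdown 2 (distance 0.00518), then Atp6v0e and Mydgf (distances 0.00690 and 0.00835). For Jak1 they were Pus7l, a pseudouridine synthase family gene, at 7.24, 7.11, 2.63 and 2.67 FPKM (distance 0.00275), then Ints3 and Nup85 (distances 0.00683 and 0.00703).

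Of 7 further genes (Jak3, Irf9 and the other STAT genes of the table), 6 were tested: 2 rose, Irf9 among them, 3 fell and 1 did not pass, with a median log2 change of -0.33 against -0.02 over all tested genes. Among so few genes these counts are near the shares over all tested genes, 27.4% higher and 41.2% lower. Irf9, the DNA-binding partner of Stat2, was at 5.66 and 5.67 FPKM against 23.1 and 24.4, a 4.19-fold rise (log2 1.89, SE 0.03, limma adjusted p = 1.6e-04). The genes that fell serve mostly other cytokines: Stat5b fell from 6.83 and 6.82 to 3.08 and 3.15 FPKM, Stat5a from 3.5 and 3.42 to 1.86 and 1.89, and Stat3, the main STAT of interleukin-6, from 10.4 and 10.2 to 6.05 and 6.12. Stat6, chosen after its values were seen, did not pass, and its high libraries were scrambled 1 and knockdown 2, at 31.9 and 31.6 FPKM, against 24.3 and 23.7 in scrambled 2 and knockdown 1. Jak3, also chosen afterwards, was below the filter, at 0.532 FPKM in each scrambled-labelled library against 1.11 and 1.14.

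Of 17 listed negative regulators 16 were tested: 5 rose, 8 fell and 3 did not pass, with a median log2 change of -0.27. The counts are again near the shares over all tested genes. Usp18, which removes Isg15 from proteins and also blocks Ifnar2, rose from 0.246 and 0.245 to 10.6 and 10.5 FPKM. Socs6 rose from 2.35 and 2.33 to 3.90 and 4.00, while Socs7 fell from 2.86 and 2.97 to 1.27 and 1.33 and Ptpn11, which encodes the phosphatase SHP2, fell from 49.2 and 49.7 to 24.4 and 25.1. Socs3, chosen after its values were seen, rose 1.22-fold. Pias2, likewise chosen afterwards, passed at a log2 change of -0.26 (limma adjusted p = 0.034) but lost the call when batch was a block (adjusted p = 0.1), and likewise under median-centring (adjusted p = 0.22) or quantile scaling (adjusted p = 0.11). No other call in these lists was lost or turned under those 3 settings.

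Other receptors that signal through Janus kinases were mostly below the filter. Of 25 listed 17 had an entry and 6 were tested: 3 rose, 0 fell and 3 did not pass (median log2 change 0.34). Without the filter 5 of the 17 rose and 2 fell. Among all tested genes 27.4% were higher and 41.2% lower, and without the filter 3819 genes were higher and 4679 lower, of at most 18200. So few receptors say little beside those numbers. Crlf2, the receptor chain for TSLP, rose from 1.84 and 1.82 to 10.5 and 10.2 FPKM, the interleukin-11 receptor gene Il11ra1 from 7.90 and 7.64 to 19.2 and 18.5, and the interleukin-4 receptor gene Il4ra from 1.48 and 1.45 to 2.96 and 2.95. Epor, the erythropoietin receptor, did not pass, at 3.76 and 4.07 against 3.49 and 3.28 FPKM (limma adjusted p = 0.057).

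Most tested targets of type I interferon rose. Of 20 listed 13 were tested: 12 rose, 0 fell and 1, Eif2ak2, chosen after its values were seen, did not pass. Their median log2 change was 2.25. Irf7, Oas1a, Oasl2, Ifit3, Xaf1, Rtp4 and Ifi27l2a averaged under 1 FPKM in the scrambled-labelled libraries and passed the filter only through the knockdown-labelled ones. This tends to raise the count and the median. Without the filter 16 of the 17 with an entry were higher and 0 lower, against 3819 and 4679 of at most 18200 genes. Over all tested genes 27.4% were higher and 41.2% lower, with a median of -0.02. Irf7, a transcription factor of interferon genes, rose 26.3-fold, Isg15 12-fold, the tethering factor Bst2 from 3.46 and 3.45 to 32.6 and 31.9 FPKM, and Rtp4 8.63-fold. Of 12 listed targets of interferon gamma, most of them below the filter, 3 were tested, of which 2 rose. Counts this small say little beside those shares. Without the filter 6 of the 12 were higher and 0 lower, beside 3819 higher and 4679 lower of at most 18200 genes. Cxcl10, also a target of type I interferon, rose 3.72-fold and the guanylate-binding protein gene Gbp2 from 0.481 and 0.479 to 1.67 and 1.79 FPKM. Irf1, a direct target of STAT dimers, did not pass, at 19.6 and 17.9 against 16.9 and 18.7 FPKM (log2 -0.07, limma adjusted p = 0.53).

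**Figure D4:**
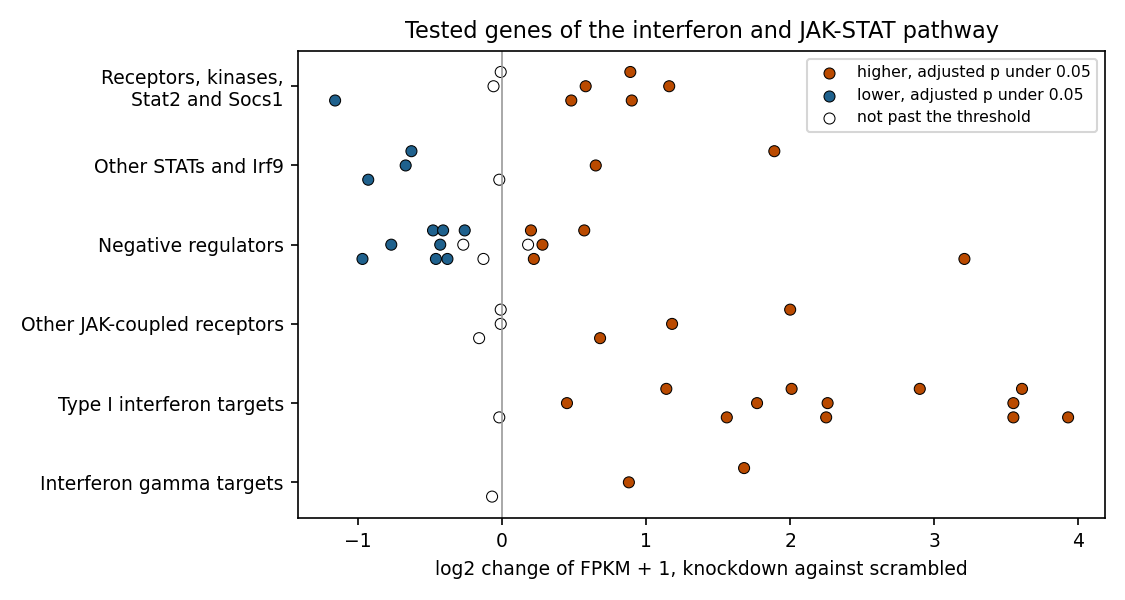
Log2 change of FPKM + 1 in the knockdown-labelled libraries against the scrambled-labelled ones for every tested gene, by list; each point is a gene, orange higher, blue lower and white not past an adjusted p of 0.05. Type I interferon targets lie to the right with 12 of 13 higher, against 27.4% of all tested genes. Several of these targets passed the filter only through the knockdown-labelled libraries, in which they were high. The negative regulators and the other STATs lie on both sides of 0.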

How the data were processed

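The authors deposited FPKM values, 1 column per library, and all 4 were used (0 left out). Per the labels' protocols, messenger RNA was captured on beads, fragmented by heat and made into libraries. The builds GRCm38, mm10 and GRCm39 are named, without a role, in the submitters' processing notes; the sources used here do not give the aligner, counting tool, annotation, strand use or treatment of reads shared by genes.

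The 8750 of 18200 genes that averaged 1 FPKM or more were compared as log2(FPKM + 1) by linear models with a trended prior (limma 3.58.1, R 4.3.3), without a batch term, two-sided, with Benjamini-Hochberg adjustment over all tested genes and a threshold of 0.05 (3.06 degrees of freedom per gene). The fit was tested on simulated counts drawn independently for each library. The opposite replicate differences of the real libraries were not simulated, so that test does not cover them. Whole fragments were solved from the ratios of FPKM between libraries for 8693 (99.3%) of the tested genes, as the smallest whole numbers that fit within a relative tolerance of 3e-08; a true number can be a multiple. Counting errors from them cover counting only. The labels pair replicates by batch; across tested genes, the replicate differences of both groups had Pearson's r = -0.83.

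Alternatives were other pseudocounts, filters and scalings, a batch block, a counting-error floor and leaving out each library. Genes named are the 9, Ifit1, up to 4 tested genes of smallest p per pathway list and the 3 nearest in pattern to 2 of the 9; exceptions are marked. Members and lists were chosen with earlier results of these data known. Promoters are from RefSeq (a window was found by symbol for all 9). Bases from the transcribed end of the window were looked up in GENCODE M21 transcripts of the same gene. They were found for Jak1, Ifngr1, Socs1, Ifnar2 and Ifngr2, but not for Tyk2, Stat2, Ifnar1 and Jak2. Figures used Python 3.11.15, pandas 2.3.3 and matplotlib 3.10.9.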

Additional observations from a re-analysis of the deposited data

How the results depend on the processing

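The 6 called genes kept their direction and passed in all 75 refits they entered, with adjusted p of 0.008 at most. That covers pseudocounts of 0.1 and 0.01, no filter, the filter at 5 FPKM (only Ifngr2, Jak1 and Socs1 reach it), median-centring, quantile normalization, eBayes without trend, batch as replicate block, the counting-error floor and leaving out each library. With the filter at 5 FPKM, 2 of the 9 genes were higher, since fewer were tested, and of all genes 1583 were higher and 2213 lower. Without the filter 3819 of at most 18200 genes were higher. The estimates for Ifnar1 and Ifnar2 turned to 0.11 and 0.16 under median-centring and to 0.03 and 0.04 under quantile normalization; the cause was not tested beyond the shift of all genes. Leaving out each library in turn moved Ifnar1 between -0.28 and 0.17 and Ifnar2 between -0.12 and 0.10, none past the threshold. Those refits gave 2187 to 2283 higher and 3432 to 3460 lower genes; the lone library of a group is assumed to vary like the other group. With batch as replicate block, 2205 genes were higher and 3417 lower, against 2401 and 3608 without, and no call among the 9 changed. A block that crosses the replicate numbers, added after the data were seen, gave 2962 higher and 4282 lower genes, and 5 higher and 2 lower among the 9, Ifnar1 being the added call. The median SE of tested genes was 0.0208, and with 2 libraries a group the p-values rest on replicate differences that were under 1 counting SD in both groups for 55.6% of genes.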

Other observations

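Among pathway genes below the filter, which were not tested, several interferon targets had higher FPKM in the knockdown-labelled libraries. Ifi44 was at 0.0429 and 0.0354 FPKM in the scrambled-labelled libraries and at 1.45 and 1.59 in the knockdown-labelled ones, from 4 fragments in each of the former and 166 and 167 in the latter. Cmpk2 was at 0.0877 and 0.0802 against 1.67 and 1.77, and Gbp3 at 0.147 and 0.145 against 0.862 and 0.931. The class II transactivator gene Ciita, which interferon gamma induces, was at 0.0113 FPKM or less in every library. Osmr, the oncostatin M receptor chain, was at 0.332 and 0.316 against 0.817 and 0.773, and Il12rb1, a chain of the interleukin-12 receptor, at 0.872 and 0.865 against 0.345 and 0.351. These genes were chosen after their values were seen.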
